A study of Mus musculus with 4 samples.

Results

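Transfer RNA synthetases and the amino acid genes controlled by ATF4 were followed in pancreatic islets of mice with and without Ggcx, the gene of gamma-glutamyl carboxylase. The group was set by name as 40 genes: 19 genes of cytosolic aminoacyl-tRNA synthetases, 16 genes of amino acid and one-carbon enzymes, and 5 genes of signalling, secreted and receptor proteins. All 40 were found once each among the 55487 genes of the deposited table, and all 40 passed the filter on low values (2 or more libraries with a normalized count of 10 or higher), as did 16589 genes in all. The mice were C57BL/6 and 30 weeks old, and poly(A)-enriched RNA of their islets was sequenced straight after isolation. The control group was Ggcx flox/flox without Cre, with 2 libraries, and the knockout group was Ggcx flox/flox with Pdx1-Cre, also with 2 libraries. A library is a pool from 2 animals, which gives n = 2 pools for each genotype, and both groups carry the floxed alleles. Pdx1-Cre is active in the pancreatic lineage, beyond beta cells, and no library carried Cre with an intact Ggcx, so effects of the transgene and of the loss of Ggcx cannot be told apart.

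An aminoacyl-tRNA synthetase joins an amino acid to its tRNA, the step that supplies the ribosome with charged tRNAs. When charged tRNAs run short or unfolded protein builds up in the endoplasmic reticulum, kinases phosphorylate the initiation factor eIF2, general translation slows, and translation of the transcription factor ATF4 rises. ATF4 then raises transcription of synthetases, amino acid transporters and the enzymes that make asparagine, serine, glycine, proline and one-carbon units. Beta cells, which make insulin at a high rate, are known to use this response.

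ATF4 binds DNA as a dimer, often with a C/EBP protein, at the C/EBP-ATF response element. Its best-known form reads TGATGCAAT, and a looser form, TGATGNAA, has any base at the N and includes every TGATGCAAT. Both were searched on both strands of the RefSeq promoters (GRCm38.p6), which run from 250 bases before a gene's start to 50 bases after it. The promoter table held 30 of the 40 members. TGATGNAA was found for 9 of the 30 (30.0%: Aars, Asns, Gars, Got1, Iars, Pycr1, Tars, Vldlr and Yars), against 4.51% of the 27025 genes in the table (3.97% of its 32851 promoters), and TGATGCAAT for 3 of the 30 (10%: Aars, Iars and Pycr1), against 0.222% of genes (0.192% of promoters). The members were listed as ATF4 targets to begin with, and a match is a description of letters, not of binding. The matches of 3 members are shown, which differ in level, in the letters of the element and in where it lies. Each is printed on the strand on which the element reads TGATG. The letters that match TGATGNAA are in capitals, so the last T of TGATGCAAT is in lower case:
Asns: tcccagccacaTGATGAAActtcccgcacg
Iars: gcgtctggaggTGATGCAAtactgacagtg
Pycr1: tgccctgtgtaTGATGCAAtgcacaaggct
The Asns window is chr6:7693214-7693243 (minus strand, 15 bases before the RefSeq start), the Iars window chr13:49682126-49682155 (minus strand, just after the start) and the Pycr1 window chr11:120643833-120643862 (minus strand, 95 bases before the start). In GENCODE M21 the Pycr1 window lies outside the gene, and the other 2 overlap an untranslated part of an exon. Asns carries the looser form and the other 2 carry TGATGCAAT.

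The libraries held 47624630 to 51756221 reads assigned to genes. Values are normalized counts. A positive log2 fold change means a higher value in knockout islets; it was computed from log2(value + 1) and is given ± its standard error. A gene is called where its limma adjusted p is under 0.05. Ggcx stood at 3971 and 3981 in the control libraries and at 234.2 and 643.4 in the knockout libraries (log2 fold change -3.35 ± 0.35, limma adjusted p = 0.0163), as the labels say. The knockout libraries match samples of the labels by name, whereas the controls are called control column 2 and control column 3 after the numbers in their column names, which differ from the labels' numbers. The islet hormone genes were high in all 4 libraries, with Ins2 between 6158564 and 6615636 and Gcg between 1096489 and 1552086. Islets hold several cell types, and in bulk RNA fewer cells of a type and less RNA per cell cannot be told apart.

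The members' levels were compared per length, as the mean normalized count over the 4 libraries per kilobase of exon. Exon length was the merged length of all annotated exons of a gene, not that of 1 transcript. The order and the gaps between genes thus depend on the annotation. Merged exons came to 4538 bases for Farsa and 2620 for Farsb. Gars, the glycine synthetase, was highest at 3778 per kilobase, followed by Asns, which makes asparagine from aspartate and glutamine, at 3134. Nars (asparagine) and Sars (serine) came next at 2541 and 2431 per kilobase. Ddit4, an inhibitor of the growth kinase complex mTORC1, stood at 1784, Aldh18a1, the first enzyme of proline synthesis, at 1684, and the mitochondrial folate enzyme Mthfd2 at 1536. The ranges over the 4 libraries of Nars and Sars overlapped, as did those of Ddit4, Aldh18a1 and Mthfd2, so the order within each of these sets is not resolved. The synthetases spanned a wide range, down to 235.6 per kilobase for Farsa, the alpha subunit of the phenylalanine enzyme. Its partner Farsb, the beta subunit, stood at 867.8 per kilobase. Of the 40 members, 3 were near the floor of the measured range: Cth at 8.52, Shmt1 at 4.27 and Stc2 at 2.22 per kilobase. Cth, which splits cystathionine to cysteine, was thus far below Cbs, the enzyme of the preceding step, at 421.2 per kilobase. The cytosolic serine hydroxymethyltransferase Shmt1 was likewise far below its mitochondrial counterpart Shmt2, at 465.3 per kilobase.

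**Figure D1:**
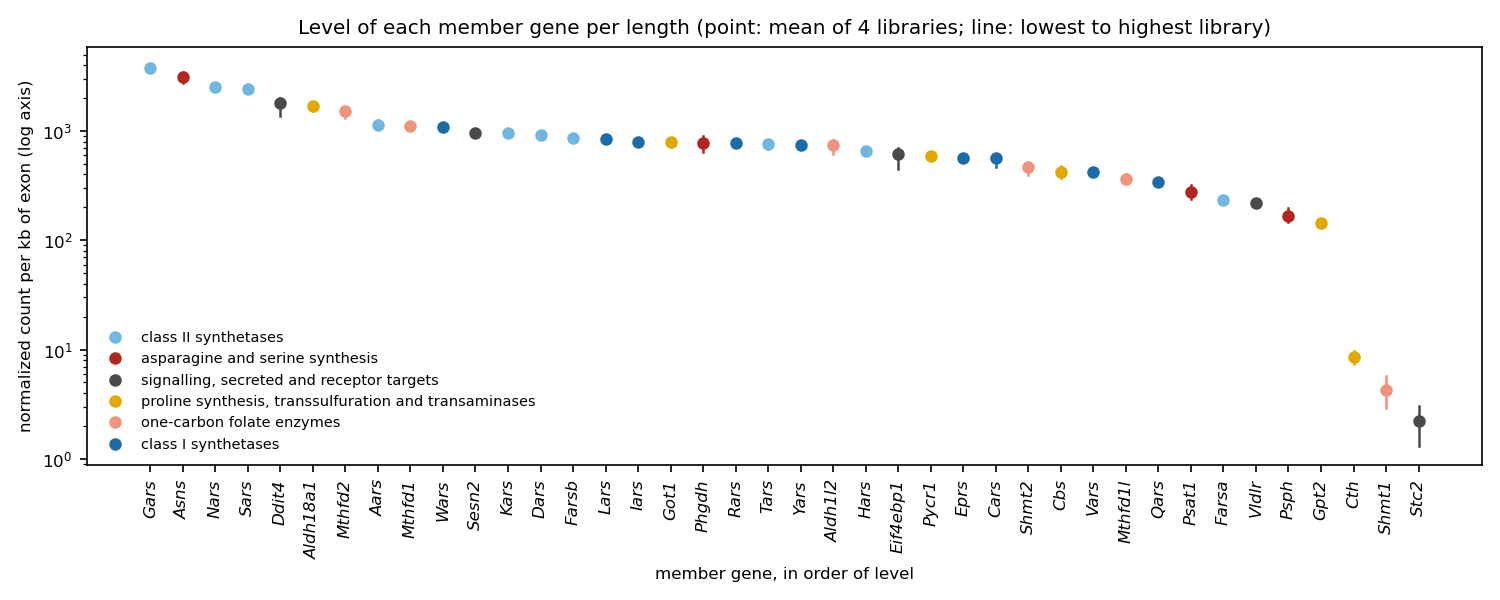
Normalized count per kilobase of exon (vertical log axis) of the 40 member genes in order of level (horizontal axis), with the mean of the 4 libraries as a point and the lowest to highest library as a line, coloured by role. In all, 37 of the 40 genes lie between 144.4 (Gpt2) and 3778 (Gars) per kilobase, and Cth, Shmt1 and Stc2 lie below 10.

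No member passed the test between genotypes: 0 of 40 were called in either direction, where 0.621% of all tested genes were called (41 higher and 62 lower). At an unadjusted limma p under 0.05 there were 7 members higher and 1 lower in knockout islets, and 14.1% of all tested genes were below that p in either direction. The 7 were Asns, Phgdh, Psph, Aldh1l2, Eif4ebp1, Ddit4 and Stc2, and the other was Mthfd1l. With edgeR, run on recovered reads, no member was called (6 higher and 1 lower at an unadjusted p under 0.05), and with DESeq2 1 was, Aldh1l2. The median log2 fold change of the 40 members was 0.02, beside 0.00 over all tested genes, and 29 of the 40 were above 0 (72.5%, beside 50.1% of all tested genes). With libraries scaled to a common total 24 of the 40 were above 0, and with a common upper quartile 30. Both knockout values lay above both control values for 12 members and below them for 4. Over all tested genes these shares were 22.0% and 23.0%. The counts of higher members include Stc2, whose direction was fixed by the filter. Without Stc2, 28 of 39 members were above 0 (71.8%), and 6 were higher at an unadjusted limma p under 0.05. Both knockout values then lay above both control values for 11 members (28.2%).

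The synthetases differed little between genotypes. Their log2 fold changes ran from -0.06 (Rars) to 0.17 (Cars) with a median of 0.01. The 95% interval of 18 of the 19 lay within ±0.3, a change of 1.23-fold, as it did for 7859 of all 16589 tested genes. The exception was Cars, which loads cysteine, with an interval from -0.05 to 0.38. Cars was at 3106 and 3922 in control islets and at 4021 and 3815 in knockout islets. Control column 2 alone was low. The log2 fold change of Cars was -0.0020 without that library and 0.33 without control column 3. Signs this close to 0 turned with the scaling: 13 of the 19 were above 0 as deposited, 11 with a common total and 14 with a common upper quartile.

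Among the 9 class I synthetases, whose catalytic domain is a Rossmann fold, the median log2 fold change was 0.01, and among the 10 class II synthetases, built on a different fold, it was 0.02. Eprs, a fusion of the glutamate and proline enzymes counted here with class I, was at 10126 and 10592 in controls and at 10556 and 10000 in knockouts. Iars (isoleucine), shown above with TGATGCAAT, was at 3874 and 4330 in controls and 4404 and 4078 in knockouts. Rars, the arginine enzyme, was at 2541 and 2537 in controls and lower in both knockout pools, at 2374 and 2489 (log2 fold change -0.06 ± 0.05). The 7 members that belong to the multi-synthetase complex, a cytosolic particle of several synthetases (Dars, Eprs, Iars, Kars, Lars, Qars and Rars), ran from -0.06 to 0.05. The other 5 class I genes, for tryptophan (Wars), tyrosine (Yars), valine (Vars), leucine (Lars) and glutamine (Qars), lay between -0.03 and 0.03.

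In class II, Gars was at 11081 and 12261 in controls and at 11970 and 11822 in knockouts, so that the knockout pools lay between the control pools. Aars (alanine) showed the same arrangement, with 9702 and 11720 in controls and 10914 and 10142 in knockouts. Groups that did not overlap, with knockouts higher, were seen for Sars, Nars and Kars (15.8% of the 19 synthetases, beside 22.0% of all tested genes). Sars was at 11660 and 12553 in controls and at 12841 and 12951 in knockouts (log2 fold change 0.09 ± 0.05). Nars was at 10873 and 10661 in controls and at 11646 and 11087 in knockouts (0.08 ± 0.05). Kars, which serves both cytosol and mitochondria, was at 4258 and 4218 and at 4264 and 4352 (0.02 ± 0.05). Tars (threonine) was at 4077 and 4547 in controls and at 4793 and 4523 in knockouts (0.11 ± 0.06), with overlapping groups. Dars, Farsa, Farsb and Hars lay between -0.05 and 0.01. Hars, Farsb and Yars share exon sequence with a tested gene that runs the opposite way. The sources used here do not give whether reads were counted by strand.

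**Figure D2:**
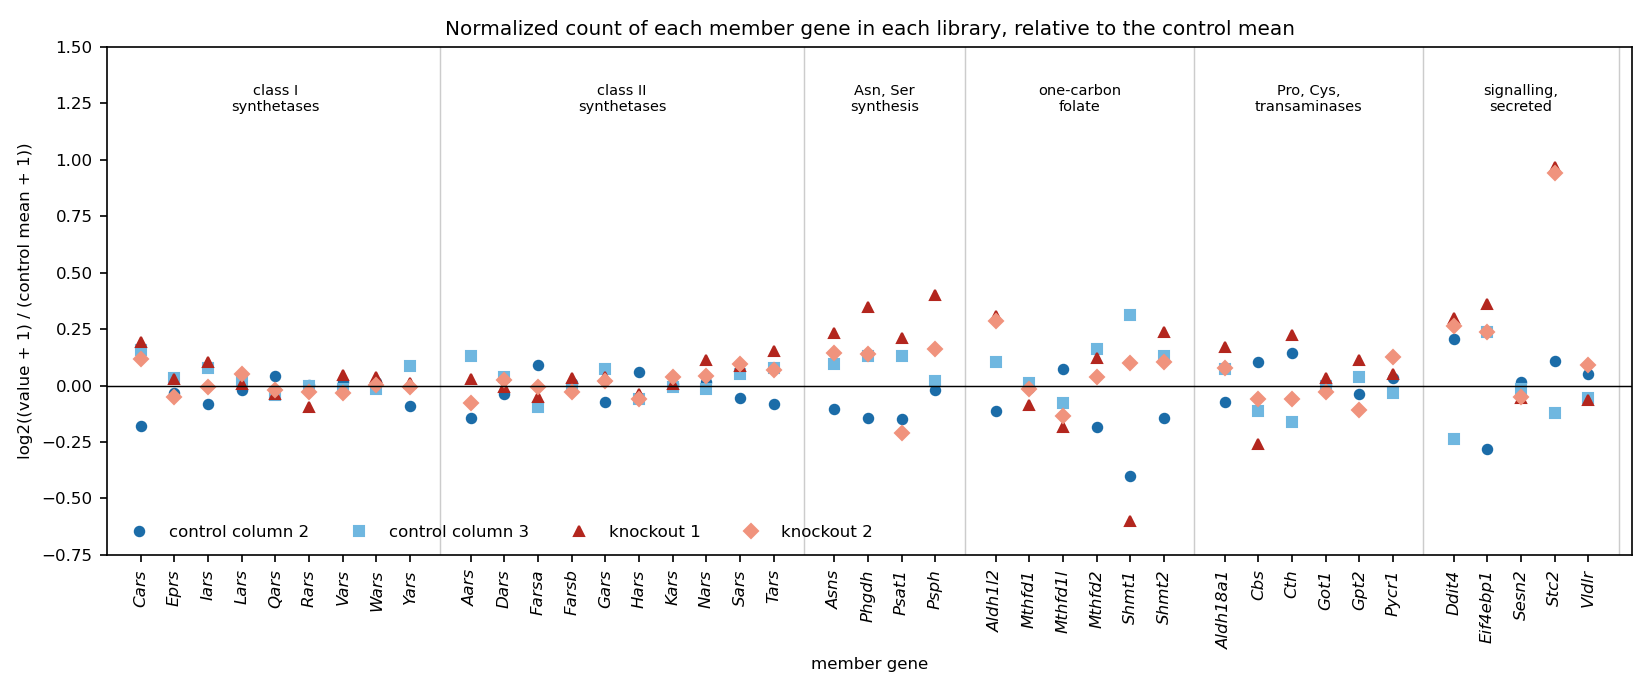
Log2 ratio of each library's normalized count to the control mean, with 1 added to both (vertical axis), for the 40 member genes grouped by role (horizontal axis). Circles and squares are control columns 2 and 3, and triangles and diamonds are knockout replicates 1 and 2. Both knockout points lie above both control points for 12 genes, among them the synthetases Sars, Nars and Kars, and below them for 4.

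Genes of asparagine and serine synthesis had log2 fold changes of 0.01 to 0.28, above 0 for 4 of 4 members, and none passed the test. Asns was at 7449 and 8566 in control islets and at 9421 and 8846 in knockout islets. Both knockout pools were above both control pools, with a log2 fold change of 0.19 ± 0.07 (95% interval 0.04 to 0.35, limma adjusted p = 0.253). It was 0.09 without control column 2 and 0.29 without control column 3. Phgdh, which opens the serine pathway from 3-phosphoglycerate, was at 1597 and 1928 in controls and at 2241 and 1944 in knockouts. The nearest pools of the 2 groups differed little, and the log2 fold change was 0.25 ± 0.10 (0.03 to 0.47, limma adjusted p = 0.296). It was 0.11 without control column 2 and 0.39 without control column 3. Psph, the phosphatase of the last step, was at 641.7 and 659.5 in controls and at 858.6 and 728.7 in knockouts. Both knockout pools were above both control pools, which lay close together, with a log2 fold change of 0.28 ± 0.09 (0.07 to 0.49, limma adjusted p = 0.209). It was 0.16 without knockout replicate 1 and 0.40 without knockout replicate 2. Exons of Psph overlap those of Cct6a on the opposite strand over 10.4% of their length. Psat1, the transaminase between Phgdh and Psph, did not share this order: it was at 1064 and 1291 in controls and at 1361 and 1018 in knockouts, with overlapping groups (0.01 ± 0.13).

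One-carbon folate enzymes move single carbons from serine and formate into nucleotides and other products, in parallel cytosolic and mitochondrial branches. In the mitochondrial branch the members' differences were of both signs. Aldh1l2, a formyltetrahydrofolate dehydrogenase (ENSMUSG00000020256; GRCm38 chromosome 10, 83487450 to 83534140, minus strand), was at 4614 and 5351 in control islets and at 6163 and 6081 in knockout islets. The knockout pools were close to each other and above both controls, with a log2 fold change of 0.30 ± 0.07 (95% interval 0.15 to 0.46). It had the smallest p of the 40 members, and the limma adjusted p was 0.0895. Aldh1l2 was past the threshold in the authors' deposited table (adjusted p = 0.0146, with a control over knockout log2 fold change of -0.30), the only one of the 37 members with an adjusted p there, against 2.35% of genes in that table. The log2 fold change of Aldh1l2 was 0.41 without control column 3, and over all 14 alternatives it was between 0.19 and 0.41. Exons of Aldh1l2 overlap those of D10Wsu102e on the opposite strand over 14.1% of their length.

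Mthfd1l, the mitochondrial formate-producing enzyme, was lower in both knockout pools: it was at 1809 and 1627 in controls and at 1513 and 1565 in knockouts. Its log2 fold change was -0.16 ± 0.07 (95% interval -0.31 to -0.0028, limma adjusted p = 0.345), and it was the member with an unadjusted p under 0.05 that was lower in knockouts. Mthfd2 was at 4588 and 5829 in controls and at 5667 and 5348 in knockouts, so that the knockout pools lay between the control pools (0.09 ± 0.10). Shmt2, which turns serine to glycine in mitochondria, was at 1231 and 1491 in controls and at 1603 and 1461 in knockouts (0.18 ± 0.09), with overlapping groups. In the cytosolic branch, Mthfd1 was at 4946 and 5017 in controls and at 4692 and 4930 in knockouts (-0.05 ± 0.05). Shmt1 had 13.3 and 22.4 in controls and 11.4 and 19.2 in knockouts, and its standard error of 0.40 leaves a difference of either sign possible.

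**Figure D3:**
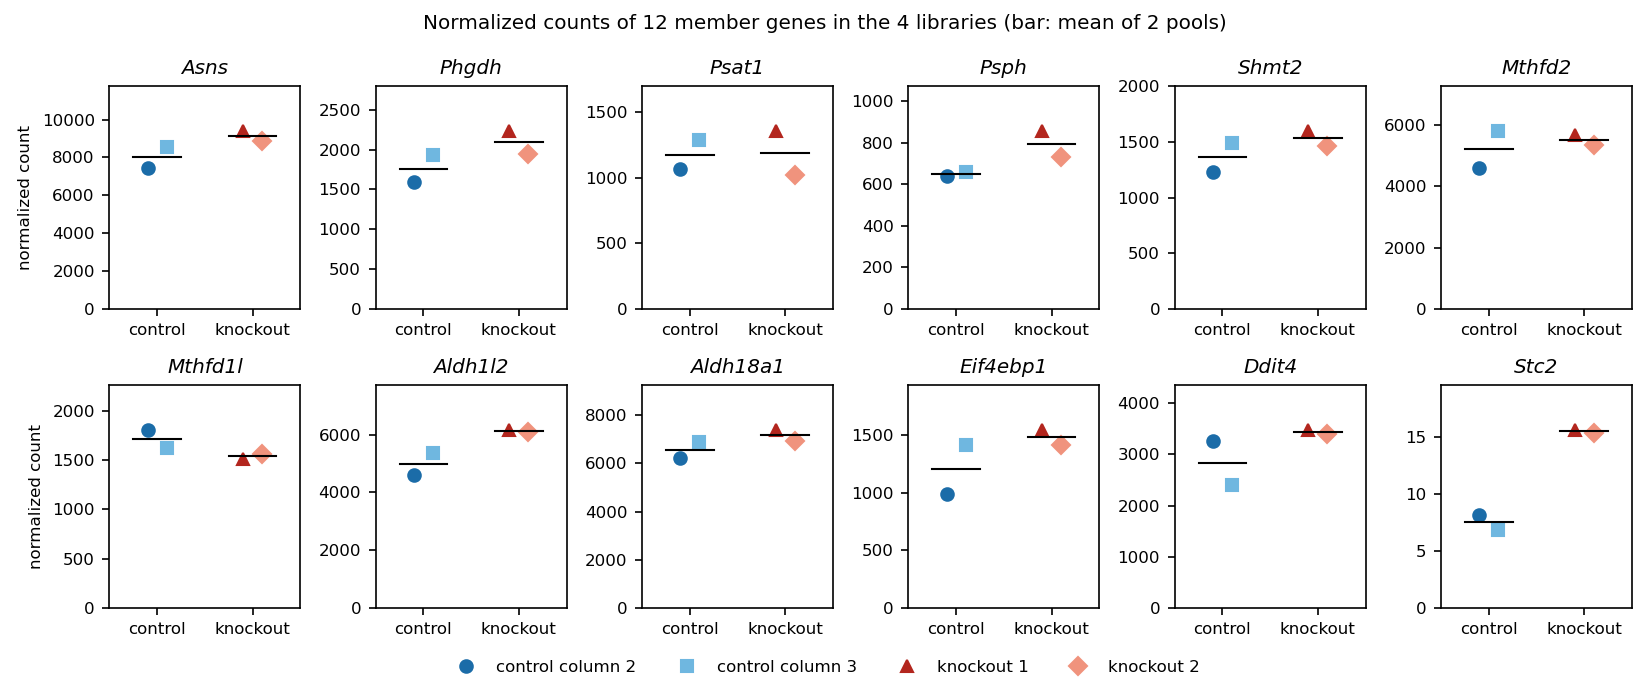
Normalized counts (vertical axes, from 0) of 12 member genes in the 2 control and 2 knockout libraries (horizontal axes), with the mean of each group as a bar. Control column 2 is the lowest library for Asns, Phgdh, Psph, Shmt2, Mthfd2, Aldh1l2, Aldh18a1 and Eif4ebp1, and control column 3 is the lowest for Ddit4 and Stc2.

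The 6 genes of proline synthesis, transsulfuration and transamination had log2 fold changes from -0.16 to 0.13. Aldh18a1 was at 6230 and 6894 in controls and at 7392 and 6918 in knockouts (0.13 ± 0.06, limma adjusted p = 0.410), with the second knockout pool just above the higher control. Pycr1, which finishes proline synthesis in mitochondria, was at 2307 and 2208 in controls and at 2338 and 2462 in knockouts (0.09 ± 0.06). Cbs was at 3577 and 3069 in controls and at 2774 and 3190 in knockouts (-0.16 ± 0.09), with overlapping groups. Cth had 25.5 and 20.5 in controls and 27.1 and 22.1 in knockouts. The transaminases Got1 and Gpt2, which exchange amino groups between glutamate and aspartate or alanine, both stood at 0.00, with 95% intervals of -0.12 to 0.13 and -0.20 to 0.20.

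The 5 signalling, secreted and receptor genes ran from -0.05 (Sesn2) to 0.96 (Stc2). Eif4ebp1 encodes 4E-BP1, the mTORC1-controlled brake on cap-dependent translation. It was at 990 and 1416 in control islets and at 1547 and 1417 in knockout islets. The second knockout pool and the higher control pool were nearly equal, and the log2 fold change was 0.32 ± 0.14 (limma adjusted p = 0.346). The log2 fold change was 0.58 without control column 3 and 0.06 without control column 2. Ddit4 showed the opposite pair of controls, at 3258 and 2395, and was at 3480 and 3389 in knockouts (0.30 ± 0.12, limma adjusted p = 0.30). Its log2 fold change was 0.52 without control column 2 and 0.08 without control column 3. For both genes the size of the difference depended on which control pool was used.

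Stc2, which encodes the secreted glycoprotein stanniocalcin 2, was at 8.17 and 6.82 in controls and at 15.6 and 15.3 in knockouts, from 8, 7, 15 and 16 reads (log2 fold change 0.96 ± 0.39, limma adjusted p = 0.311). It passed the filter only through the knockout libraries, so its direction among tested genes was fixed by the filter. Without Stc2 the median over the other 39 members was 0.02. Sesn2, a leucine-sensing inhibitor of mTORC1, was at 3431 and 3368 in controls and slightly lower in both knockouts, at 3276 and 3283 (-0.05 ± 0.05). Vldlr, a lipoprotein receptor, was at 2292 and 2128 in controls and at 2115 and 2357 in knockouts, with overlapping groups.

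The control pools differed from each other more than the knockout pools did. The median absolute log2 difference over the 40 members was 0.15 between the control columns and 0.07 between the knockout replicates, beside 0.11 and 0.09 over all tested genes. Control column 2 was the lowest of the 4 libraries for 17 of the 40 members (42.5%, beside 24.9% of all tested genes), and knockout replicate 1 was the highest for 20 (50%, beside 23.4%). Both held for 10 members: Aldh18a1, Aldh1l2, Asns, Cars, Eif4ebp1, Iars, Phgdh, Psph, Shmt2 and Tars. That is 25% of the members, beside 8.98% of all tested genes. With each library scaled to a common total, control column 2 was again the lowest for 17 and knockout replicate 1 the highest for 20.

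Alpha cell markers had the same lowest and highest libraries. The 5 alpha cell markers together took 2.37% and 2.78% of normalized counts in control columns 2 and 3, and 3.36% and 2.79% in knockout replicates 1 and 2. All 5 had log2 fold changes above 0. The 3 delta cell markers were also above 0, with Rbp4 called. Of the 14 acinar markers, 12 were tested, all 12 were below 0, and Try4 was called. Their share was 0.0307% and 0.0346% in controls and 0.0154% and 0.0258% in knockouts. The 8 stellate cell and fibroblast markers were all above 0, with Dcn called, and their share was 0.0110% and 0.00952% in controls and 0.0142% and 0.0124% in knockouts. Of the 7 beta cell markers, 3 were above 0, with a median of -0.06. Above 0 were also 4 of 5 tested duct markers, 4 of 5 endothelial markers and 2 of 5 tested macrophage and lymphocyte markers. The PP cell marker Ppy was at 0.45, and no marker of these 5 lists was called. None of the lists had a marker at 0 in all libraries. Markers are named here because they were called, after their values were seen. Dcn and Rbp4 were not called without control column 3 (limma adjusted p = 0.0651 for both), nor was Rbp4 without knockout replicate 1 (0.119) or 2 (0.0879). The part of these cell types in the values of Asns, Phgdh, Psph, Aldh1l2, Eif4ebp1 and the other members was not tested.

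The other genes of the pathway were described from fixed lists. Of 5 further genes of the cytosolic synthetase system none was called by limma (0 at an unadjusted p under 0.05); the most abundant by normalized count were Mars1 (methionine) and the complex scaffold Aimp1, at 0.15 ± 0.07 and 0.03 ± 0.07. Mars1 was at 3280 and 3635 in controls and at 4057 and 3617 in knockouts. All 17 mitochondrial synthetases were tested with limma and none passed (0 at an unadjusted p under 0.05). Their median was -0.07, with 6 of 17 above 0 (35.3%, beside 50.1% of all tested genes), and all 17 lay within ±0.2. Of the 19 cytosolic enzymes, 13 were above 0 as deposited and 11 with a common total. The difference between these 2 lists was not tested. Of the 17, Lars2 and Iars2 had the highest normalized counts, not divided by length. Lars2 varied widely between pools, with 11513 and 12266 in controls and 8031 and 14510 in knockouts, whereas Iars2 was at 2502 and 2458 and at 2357 and 2384. Of 23 further enzymes of folate, proline, glutamate and transamination, 21 were tested and 1 rose, Bcat1, the cytosolic branched-chain aminotransferase. It was at 43.9 and 33.1 in controls and at 128 and 98.8 in knockouts (log2 fold change 1.53 ± 0.23, limma adjusted p = 0.0366). Bcat1 was not called without control column 3 (1.34, limma adjusted p = 0.0584) or without knockout replicate 1 (1.35, limma adjusted p = 0.0700). The median of the 21 was 0.02. None of 9 amino acid transporters known as ATF4 targets passed limma's test (1 higher and 1 lower at an unadjusted p under 0.05). Slc7a5 and Slc3a2, which pair as the large neutral amino acid exchanger, had the highest normalized counts and log2 fold changes of 0.02 ± 0.08 and 0.10 ± 0.05. Of 8 paralogs of the signalling members, 7 were tested with 0 limma calls (2 lower at an unadjusted p under 0.05) and a median of -0.11, and Sesn3, with the highest normalized count, was at -0.12 ± 0.05.

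Regulators of the response were described the same way. Of 16 eIF2 kinases, phosphatase subunits and ATF4-CHOP regulators, 2 were called lower, Trib3 and Ddit3, and the median was -0.13, with 4 of 16 above 0. At an unadjusted limma p under 0.05, 6 were lower and 2 were higher. The 2 higher genes were Atf5 and Atf3 (0.12 ± 0.05), named after their values were seen. Trib3, a pseudokinase that restrains ATF4, was at 1481 and 1429 in controls and at 1051 and 1105 in knockouts (log2 fold change -0.43 ± 0.06, limma adjusted p = 0.0366). Ddit3, which encodes the transcription factor CHOP, was at 10320 and 11018 in controls and at 7681 and 8630 in knockouts (-0.39 ± 0.06, limma adjusted p = 0.0442). Without knockout replicate 1 neither was called (limma adjusted p = 0.0650 for Trib3 and 0.0738 for Ddit3), nor was Ddit3 without control column 3 (limma adjusted p = 0.0831). Transcripts of Atf4 itself, whose protein level is set mainly by translation, were at 25325 and 25997 in controls and at 21085 and 23265 in knockouts (-0.21 ± 0.06, limma adjusted p = 0.134). Atf4, named outside the rule after its values were seen, did not pass the test, and its groups did not overlap. Knockout values below both controls were thus measured for 8 of these 16 genes and for 4 of the 40 members, beside 23.0% of all tested genes, and the difference between the lists was not tested.

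**Figure D4:**
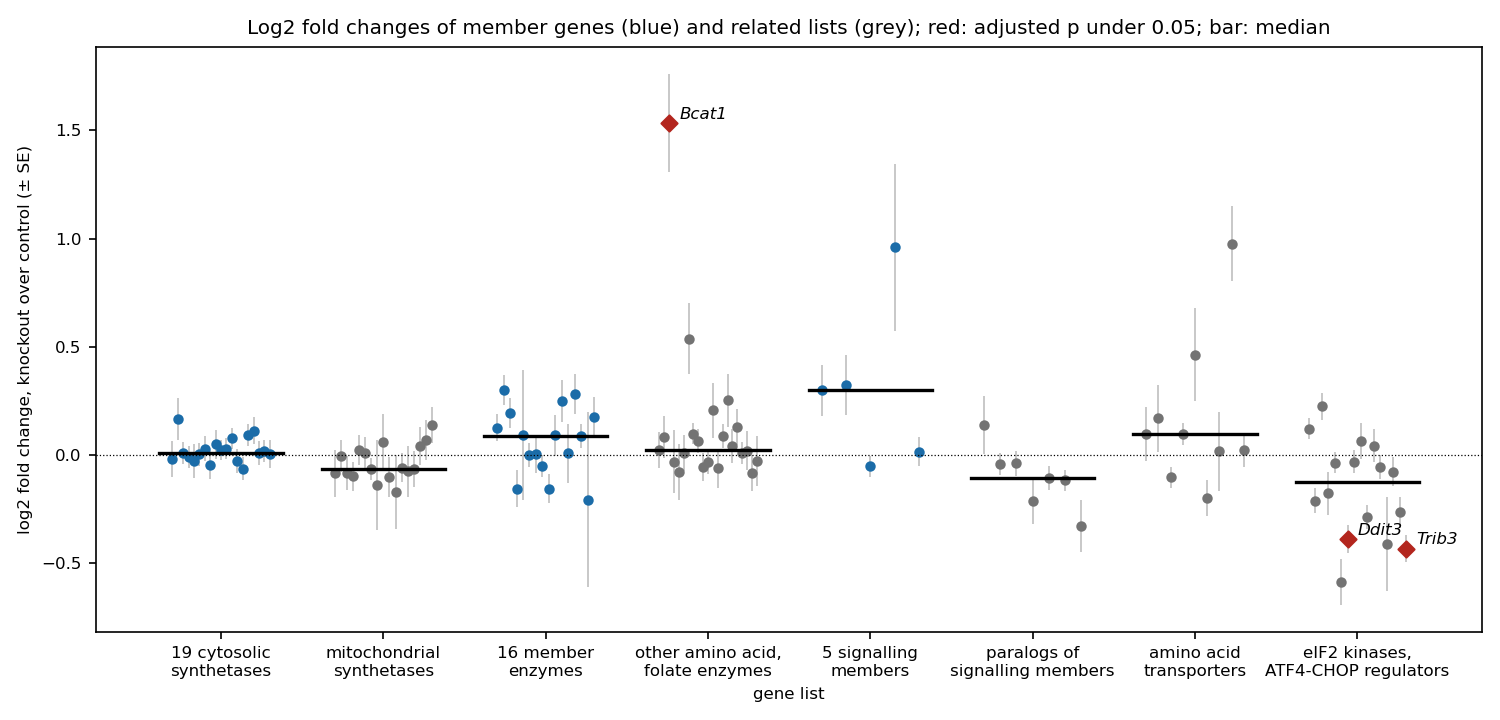
Log2 fold change, knockout over control, with its standard error (vertical axis) for the tested genes of 8 lists (horizontal axis), members in blue and related lists in grey, with each list's median as a bar and called genes as red diamonds. The synthetases lie between -0.06 and 0.17 with a median of 0.01, and the regulators, with Trib3 and Ddit3 called lower, have a median of -0.13.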

How the data were processed

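RNA from 4 islet libraries was analysed from 1 table of 55487 genes. Its deposited signal values are read counts that the authors scaled for library size, according to the name of the table. The authors' own columns hold a log2 fold change, standard error, test score, p-value and adjusted p for each gene, used here only for Aldh1l2 and the count of calls. Tools listed in the submitters' processing notes, without roles, are DESeq2 1.22.2, featureCounts 1.6.0, STAR 2.5.1b and CASAVA 1.4, with the build GRCm38; the annotation and the use of strand are not given in the sources used here. All values (100% within 0.01 of a read) were whole multiples of the value of 1 read, which gave reads and depth.

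The 16589 genes that reached 10 in 2 or more libraries entered limma (version 3.58.1, R 4.3.3) as log2(value + 1), with a mean-variance trend (prior degrees of freedom 6.85, residual 2), two-sided, with Benjamini-Hochberg adjustment at 0.05 over all of them. The pseudocount of 1 understates changes of low genes. Intervals are 95% from the same fit and leave out multiple testing. With 2 pools against 2 the smallest p of an exact permutation test is 0.333. The labels do not say whether each pool came from different mice, so p-values measure the spread between these pools. EdgeR 4.0.16 and DESeq2 1.42.0 were run on the recovered reads as alternatives, and the steps were tested on simulated data. Lengths and coordinates are from GENCODE M21 (GRCm38), which holds 99.4% of the identifiers; promoters are from RefSeq. Named genes were all members, Ggcx, and of each further list its called genes or its 2 most abundant. The members and lists were chosen with earlier results of these data known. Some items that these rules select are not reported here. Columns of other samples numbered 0.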

Additional observations from a re-analysis of the deposited data

How the results depend on the processing

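Over 14 alternatives (each library left out in turn, edgeR, DESeq2, scaling to a common total or upper quartile, a filter at 50 or none, pseudocounts of 0.5 and 5, robust moderation, and no trend in limma), 550 of 555 single-gene values of members stayed on their side of the threshold without a change of direction. For 80 of these the side was fixed in advance, since limma without the trend called 0 of 16589 genes and limma without the filter 2 of 27523; over the other 12 alternatives it was 470 of 475. Sign changes of values within 1 standard error of 0 were not counted as changes of direction, and 38 values changed sign in all. The value that changed direction was Cars without control column 2, at -0.0020, and with a library left out Cars ranged from there to 0.33. The number of members called higher was 0, and it was 1 with DESeq2 (Aldh1l2, where 3 members had no adjusted p). With a library left out, Ddit4 crossed the threshold without control column 2, and Aldh1l2 and Eif4ebp1 without control column 3. A fit with a library left out has 1 pool in a group, and that group adds no spread to the p. For these 3 genes only effect sizes are therefore given above for such fits. None was called lower under the 12 alternatives that call more than 2 genes (1 at an unadjusted limma p under 0.05, and 1 by edgeR). With a library left out, the median log2 fold change was 0.014 to 0.060 for all members and -0.0043 to 0.048 for the synthetases. For the signalling members it was 0.069 to 0.18, below the 0.30 of all 5 in the main fit. Stc2 was not tested where a knockout library was left out. The signalling median was 0.16 with a filter at 50, which leaves out Stc2. A filter at 50 tests 37 of the 40 members. Outside the members, where alternatives were run after the data were seen, Trib3 was called in 11 of 14, Ddit3 in 9, Bcat1 in 10, Ggcx in 11, Try4 in 12, Dcn in 9 and Rbp4 in 7, with no change of sign; none was called without the trend or the filter, Ddit3, Dcn and Rbp4 were not with a filter at 50, Ggcx and Dcn not with robust moderation, and Rbp4 not with a common total. The 3 lowest members are limited by depth, at 7 to 26 reads per library. No paired analysis was possible because the labels give no pairing of control pools with knockout pools.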

Other observations

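Outside the fixed rule for named genes, and chosen after their values were seen, 3 genes of the wider pathway stood near the threshold. Slc7a3, a transporter of cationic amino acids, was at 59.3 and 56.5 in control islets and at 117 and 113 in knockout islets, which did not pass (0.98 ± 0.17 on the log2 scale, limma adjusted p = 0.0507). Chac1, an ATF4-CHOP target that degrades glutathione, was at 4881 and 3769 in controls and at 2729 and 2981 in knockouts (-0.59 ± 0.11, limma adjusted p = 0.0522). Eif2ak3, which encodes the endoplasmic reticulum eIF2 kinase PERK, was at 3987 and 4118 in controls and at 3206 and 3439 in knockouts (-0.29 ± 0.05, limma adjusted p = 0.0606). The groups of all 3 genes did not overlap. Atf5, a relative of Atf4 controlled in a similar way at translation, was at 13443 and 14827 in controls and higher in both knockouts, at 15848 and 17176 (0.22 ± 0.06, limma adjusted p = 0.142), opposite in sign to Atf4.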
